A study of Homo sapiens with 12 samples.

Results

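The miR-23/27/24 group was taken as 5 mature microRNAs (miRNAs) found by name among 1451 small RNAs counted in Hep3B tumours: hsa-miR-23a-3p and hsa-miR-27a-3p of the a cluster, hsa-miR-23b-3p and hsa-miR-27b-3p of the b cluster, and hsa-miR-24-3p, which both clusters make. The species prefix is left out from here on. All 5 were in the table and all 5 passed the filter on low counts. Xenografts grown from the human hepatocellular carcinoma line Hep3B and treated with bufotalin were compared with control xenografts, with 3 small RNA libraries and 3 total RNA libraries in each group, 12 in all. Bufotalin is a bufadienolide of toad venom, one of the cardiac glycosides, which bind the sodium pump. The labels name the line, the xenograft and the treatment for each group; dose, duration, vehicle and host animal are not given in the sources used here. Nothing in the labels says that replicates are separate animals, so a p-value here measures how far these libraries spread, and that spread may be technical. In these bulk samples, fewer cells of a type and less RNA per cell cannot be told apart. The 5 miRNAs are conserved in mammals, so RNA of host cells in a tumour and RNA of Hep3B cells cannot be told apart by name.

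Each cluster is a run of 3 hairpins that are cut from a common primary transcript. A hairpin yields a duplex of a 5p and a 3p strand, and in these hairpins the 3p strand is the usual guide, which directs Argonaute to mRNAs that pair with its seed, here bases 2 to 8. In other systems miR-27 is known for repressing regulators of lipid metabolism such as PPARG, and miR-24 for repressing genes of the cell cycle and of DNA repair.

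The mature sequences show why the a and b forms are set beside each other: they have the same seed (in capitals) and part near the 3′ end. They are RefSeq sequences on GRCh38.p14, written 5′ to 3′.
miR-23a-3p: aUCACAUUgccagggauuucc
miR-23b-3p: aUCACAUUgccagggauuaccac
miR-27a-3p: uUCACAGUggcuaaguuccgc
miR-27b-3p: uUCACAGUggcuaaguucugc
miR-24-3p: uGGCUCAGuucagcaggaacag
With positions counted from 1 at the 5′ end, miR-23a-3p against miR-23b-3p differed by U19A over the 21 bases they can be aligned on, and miR-27a-3p against miR-27b-3p differed by C19U. The seeds of miR-23 and miR-27 differed from each other by U7G, with the base of miR-23a-3p first. How the authors assigned reads that stop before base 19 is not given in the sources used here. Nor is it given whether a mismatch was allowed, which could place longer reads in both rows. The split of reads between an a form and its b form is uncertain for both reasons. A RefSeq sequence was matched for 1231 of the 1451 small RNAs, and seeds were compared among these only. Apart from the 5 members, those with the same seeds were miR-23c and miR-9985. miR-23c was counted 1, 1 and 2 times in bufotalin libraries and 0 times in each control library. miR-9985 was counted 0, 2 and 0 times in bufotalin libraries and 0 times in each control library. All of these counts lie at or under a floor of 3 counts. No other miRNA of the table with a RefSeq sequence shared the seed of miR-24-3p.

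The a cluster lies on the minus strand of chromosome 19, from 13836287 (MIR24-2) through MIR27A to 13836659 (MIR23A), within the long noncoding gene MIR23AHG (13834516 to 13842918). The b cluster lies on the plus strand of chromosome 9, from 95085208 (MIR23B) through MIR27B to 95086088 (MIR24-1), within AOPEP (94726699 to 95150224), which encodes an aminopeptidase. The a cluster spans 373 bases and the b cluster 881 bases. Whether the hairpins fall in exons or introns of these genes was not looked up. Neither host gene was listed in the authors' mRNA or lncRNA tables, which hold features that the authors selected as different. The hairpins of miR-27 are shown because the results turn on them, with both mature strands in capitals.
MIR27A: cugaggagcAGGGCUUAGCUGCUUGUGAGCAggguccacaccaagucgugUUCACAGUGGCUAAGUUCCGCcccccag
MIR27B: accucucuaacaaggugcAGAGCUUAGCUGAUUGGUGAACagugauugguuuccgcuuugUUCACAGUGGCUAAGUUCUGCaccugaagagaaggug
MIR27A occupies chr19:13836440-13836517 and MIR27B chr9:95085445-95085541. The 3p strands of these hairpins are nearly alike, while the 5p strands differ at 8 of 22 bases, so a 5p read is easier to place in its cluster than a 3p read.

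The small RNA libraries held 1869893 to 4197636 counts. Levels are given as counts per 1000000 counts of the library (CPM), with no correction for length, since mature miRNAs are of nearly equal length. Bufotalin replicate 2 stood apart in its blood markers: the 4 listed erythroid miRNAs summed to 38609 CPM there, against 585 and 360 CPM in bufotalin replicates 1 and 3 and 341 to 505 CPM in control libraries, and its 5 listed leukocyte miRNAs summed to 246 CPM, against 16.6 and 9.81 CPM in the other bufotalin libraries and 11.8 to 15.0 CPM in control libraries. The 2 endothelial miRNAs summed to 1600 to 1980 CPM in bufotalin libraries and to 2018 to 2240 CPM in control libraries, without overlap. This holds in CPM of the library total. miR-126-3p, which made up most of these sums, had a log2 fold change of -0.15 by edgeR with TMM scaling (adjusted p 0.817). The 5 stromal miRNAs, mostly miR-143-3p, summed to 706 to 752 CPM in bufotalin and 124 to 545 CPM in control libraries, also without overlap. The 3 of 4 listed muscle miRNAs with a row summed to 57.8 to 421 CPM in bufotalin and 50.6 to 90.8 CPM in control libraries. The 3 of 4 listed hepatocyte miRNAs with a row summed to 1610 to 2061 CPM in bufotalin and 881 to 1616 CPM in control libraries; miR-122-5p, the defining miRNA of hepatocytes, was at 15.4 to 36.4 CPM in bufotalin and 23.3 to 116 CPM in control libraries. The filter on low counts left 2 endothelial, 2 leukocyte, 2 erythroid, 4 stromal, 1 muscle and 3 hepatocyte miRNAs to test. None of these was called by edgeR. The part of these cells in the results below was not tested, except that for some results values are given without bufotalin replicate 2.

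Within the group, miR-27a-3p was the miRNA with the larger difference. It had 28121, 24173 and 15007 CPM in bufotalin replicates 1, 2 and 3, against 14745, 8158 and 6372 CPM in control replicates 1, 2 and 3. The lowest bufotalin library was just above the highest control library, so the groups did not overlap but nearly touched. The means were 22434 ± 6728 CPM in bufotalin and 9758 ± 4410 CPM in control libraries (SD, n = 3 each), and the fitted log2 fold change was 1.33 (SE 0.35). The quasi-likelihood F test of edgeR, adjusted over 477 miRNAs by Benjamini-Hochberg, gave an adjusted p of 0.0510, so miR-27a-3p narrowly missed the threshold of 0.05 (unadjusted p 0.00309). The call turned on the setting: the adjusted p by edgeR was 0.00721 without control replicate 1, the control library with the highest level, and 0.042 with DESeq2's size factors, while it was 0.161 without bufotalin replicate 2 (log2 fold change 1.28). It was 1 of 16 among 477 miRNAs with a log2 fold change of this size or higher.

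The b form, miR-27b-3p, has the same seed, and its groups overlapped. It had 22222, 19001 and 14245 CPM in bufotalin libraries, against 26967, 14312 and 8570 CPM in control libraries. The control libraries ran from below the lowest to above the highest bufotalin library. The log2 fold change was 0.31 (SE 0.37), with an adjusted p of 0.674 by edgeR. This value rested on single libraries: it was 0.87 (adjusted p 0.0643) without control replicate 1, 0.05 without control replicate 2 and 0.04 without control replicate 3, and 0.15 with library totals. Added together, the a and b forms of miR-27-3p made up 50343, 43174 and 29253 CPM in bufotalin libraries, against 41712, 22470 and 14942 CPM in control libraries, with overlap through control replicate 1.

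miR-23a-3p had 7341, 6516 and 4443 CPM in bufotalin libraries, against 7109, 7980 and 3277 CPM in control libraries. The groups covered nearly the same range, and the log2 fold change was 0.19 (SE 0.28; adjusted p 0.754 by edgeR). Its sign was not fixed, at -0.01 with library totals and -0.06 without control replicate 3. miR-23b-3p, the least abundant of the 5, had 1310, 1155 and 834 CPM in bufotalin libraries, against 1643, 1860 and 975 CPM in control libraries. The groups overlapped, with a log2 fold change of -0.27 (SE 0.26; adjusted p 0.592 by edgeR). It was -0.17 without control replicate 1 or bufotalin replicate 3, -0.42 without control replicate 3 and -0.44 with library totals. The a and b forms of miR-23-3p together had 8650, 7671 and 5277 CPM in bufotalin libraries and 8752, 9840 and 4252 CPM in control libraries.

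miR-24-3p, the product that both clusters share, had nearly equal levels in the groups. It had 19880, 15070 and 18087 CPM in bufotalin libraries, against 19487, 19221 and 18082 CPM in control libraries. The bufotalin libraries lay on both sides of the control range, which was narrow in CPM of the library total; after TMM scaling the control libraries ran wider, at 18295, 14560 and 21766 CPM. The log2 fold change was 0.04 (SE 0.28; adjusted p 0.940 by edgeR), and its sign turned to -0.10 with library totals, to -0.08 without bufotalin replicate 3 and to -0.16 without control replicate 2.

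**Figure D1:**
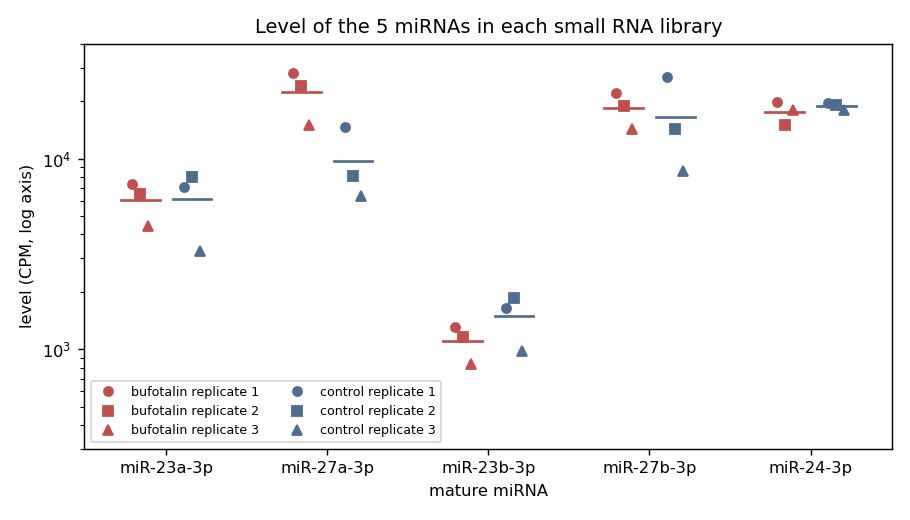
CPM on a log axis for each of the 5 miRNAs, with bufotalin libraries (red) left of control libraries (blue); marker shapes are replicate numbers and bars are means of 3 libraries. miR-27a-3p is the 1 miRNA whose groups do not overlap, at 15007 to 28121 CPM in bufotalin and 6372 to 14745 CPM in control libraries.

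In all, edgeR called 0 of the 5 miRNAs, beside 27 of 477 tested miRNAs (5.66%), of which 10 were higher (2.1%) and 17 lower (3.56%); 1 of the 5 had an unadjusted p under 0.05, beside 124 of 477 (26%), and DESeq2 called 1 of the 5, miR-27a-3p, beside 62 of 477 (13%). The median log2 fold change of the 5 was 0.19, and -0.04 over all tested miRNAs. Groups without overlap after TMM scaling (edgeR's normalization to a common bulk of miRNAs) were found for 1 of the 5, on the higher side, and for 146 of 477 miRNAs (30.6%; 13.8% higher and 16.8% lower), so this count lay no higher than the background.

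The order of levels also differed between groups. In bufotalin replicates 1 and 2 it ran, from high to low, miR-27a-3p, miR-27b-3p, miR-24-3p, miR-23a-3p, miR-23b-3p; in bufotalin replicate 3 miR-24-3p came before miR-27a-3p. In control replicates 2 and 3 it ran miR-24-3p, miR-27b-3p, miR-27a-3p, miR-23a-3p, miR-23b-3p, and control replicate 1 had miR-27b-3p before miR-24-3p. miR-27a-3p thus lay above miR-27b-3p in 3 of 3 bufotalin libraries and below it in 3 of 3 control libraries, although over libraries the ranges of neighbours at the top of the order overlapped within each group. miR-23b-3p stood apart at the bottom in both groups, and miR-23a-3p lay below miR-24-3p and above miR-23b-3p without overlap in both groups. Ligation efficiency differs between miRNA sequences, so levels of different miRNAs are compared here within the same libraries and as counts of reads. The 5 together took 7.89%, 6.59% and 5.26% of the counts in bufotalin libraries, against 7.0%, 5.15% and 3.73% in control libraries; the widest exact 95% binomial interval, for bufotalin replicate 1, was 7.85% to 7.93%, and covers counting error only.

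The comparison of the clusters was made as the ratio of a to b counts within a library, which needs no normalization between libraries. For the 3p strands it rests on how the authors assigned reads between the a and b forms, which is not known. For miR-27-3p, the a to b ratio was 1.27, 1.27 and 1.05 in bufotalin libraries, against 0.547, 0.570 and 0.744 in control libraries. Each bufotalin library held more of the a form than of the b form, and each control library held less. The log2 ratio averaged 0.25 ± 0.15 in bufotalin and -0.70 ± 0.24 in control libraries (SD, n = 3 each), a difference of 0.96 (SE 0.17), or a 1.94-fold higher ratio. The exact two-sided permutation p was 0.10, the smallest that 3 against 3 libraries allow, and 0.15 after Benjamini-Hochberg adjustment over the 6 ratios compared, so this design could not reach 0.05. Without bufotalin replicate 2 the difference was 0.91, and over each library left out in turn it ranged from 0.87 to 1.10.

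For miR-23-3p, the a to b ratio was 5.6, 5.64 and 5.33 in bufotalin libraries, against 4.33, 4.29 and 3.36 in control libraries. The a form was the more abundant in every library, and the bufotalin libraries all lay above the control libraries. The log2 difference was 0.48 (SE 0.12; exact permutation p 0.10, adjusted 0.15, n = 3 each), smaller than for miR-27-3p.

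The 5p strands, by-products of the same hairpins, gave ratios of their own. The a to b ratio of miR-27-5p was 13.4, 11.8 and 14.4 in bufotalin libraries, against 6.06, 6.34 and 12.01 in control libraries. Control replicate 3 reached into the bufotalin range; the log2 difference was 0.77 (SE 0.33; exact permutation p 0.20, adjusted 0.24, n = 3 each). The ratio of miR-23-5p, which rests on 14 to 128 counts a library, was 0.549, 0.595 and 2.31 in bufotalin libraries, against 0.315, 0.741 and 1.15 in control libraries, with wide overlap (log2 difference 0.50, SE 0.87; exact permutation p 0.70, adjusted 0.70, n = 3 each). Its sign depended on single libraries, at -0.17 without bufotalin replicate 3 and -0.02 without control replicate 1.

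The hairpins of miR-24 have the same 3p product, so only their 5p strands can be compared between the clusters. How far a 5p level follows the output of its cluster was not measured. miR-24-2-5p, of the a cluster, was the more abundant throughout: its ratio to miR-24-1-5p was 26.9, 28.1 and 23 in bufotalin libraries, against 28.2, 30.0 and 29.0 in control libraries. Here the bufotalin libraries lay below the control libraries, by 0.17 on the log2 scale (log2 difference -0.17, SE 0.09; exact permutation p 0.10, adjusted 0.15, n = 3 each), or -0.08 without bufotalin replicate 3. This difference was small, and miR-24-1-5p had only 85 to 182 counts a library. Whether the hairpins of a cluster differ in the direction of the a to b ratio was thus not established.

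Summed over the miRNAs that belong to a single cluster, a to b was 1.58, 1.60 and 1.41 in bufotalin libraries, against 0.824, 1.15 and 1.27 in control libraries. The groups did not overlap, with a log2 difference of 0.52 (SE 0.20; exact permutation p 0.10, adjusted 0.15, n = 3 each) that was 0.34 without control replicate 1. These sums were mostly miR-27-3p: miR-27a-3p was 70.1% to 75.0% of the a sum in bufotalin and 43.2% to 62.1% in control libraries, and miR-27b-3p was 93.8% to 93.9% of the b sum in bufotalin and 87.3% to 93.7% in control libraries.

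**Figure D2:**
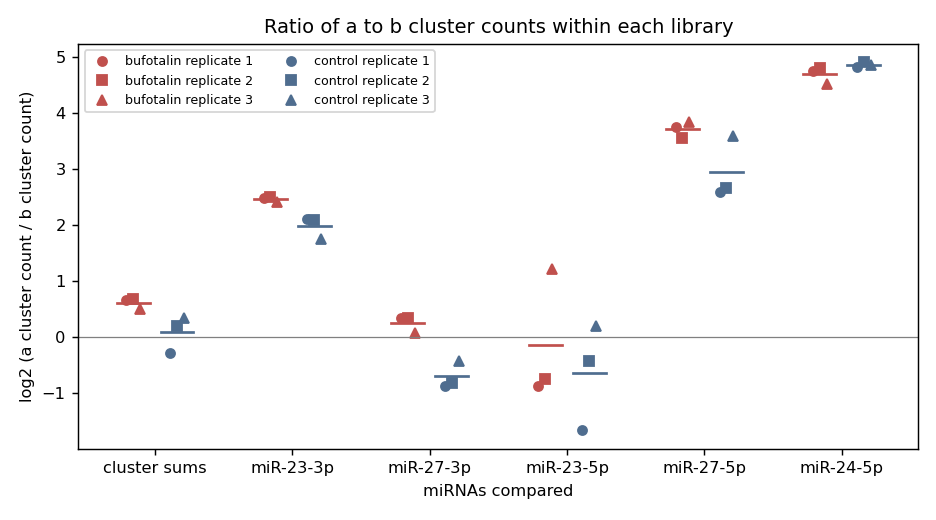
log2 of the a cluster count over the b cluster count in each library, for the cluster sums and for each kind of strand, with bufotalin libraries (red) left of control libraries (blue) and bars for the mean of 3 libraries; above 0 the a form is the more abundant. For miR-27-3p the bufotalin libraries lie above 0 and the control libraries below it, while for miR-24-5p the bufotalin libraries lie under the control libraries.

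The 5p strand of MIR27A had another fitted value than its 3p strand. miR-27a-5p had 771, 511 and 783 CPM in bufotalin libraries, against 640, 838 and 1089 CPM in control libraries, with a log2 fold change of -0.21 (SE 0.38; adjusted p 0.799 by edgeR), while its partner miR-27a-3p had 1.33. The sign of miR-27a-5p was not fixed, at 0.20 without control replicate 3 and -0.01 without bufotalin replicate 2. The 3p to 5p ratio of MIR27A was 36.5, 47.3 and 19.2 in bufotalin libraries, against 23.02, 9.73 and 5.85 in control libraries. Control replicate 1 lay above bufotalin replicate 3, so the groups overlapped.

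Groups without overlap, found after TMM scaling for 30.6% of all tested miRNAs, were seen among the 5p strands for miR-27b-5p alone. It had 57.2, 43.1 and 54.3 CPM in bufotalin libraries, against 106, 132 and 90.4 CPM in control libraries, without overlap (log2 fold change -0.91, SE 0.30; adjusted p 0.0896 by edgeR, not past the threshold). The 3p to 5p ratio of MIR27B was 387, 439 and 262 in bufotalin libraries, against 255, 108 and 94.5 in control libraries, with bufotalin replicate 3 just above control replicate 1.

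The other 5p strands overlapped between groups: miR-23b-5p had a log2 fold change of -0.999 (SE 0.45; 14 to 39 counts in bufotalin and 27 to 128 in control libraries), miR-23a-5p -0.57 (SE 0.46), miR-24-2-5p -0.21 (SE 0.28) and miR-24-1-5p -0.02 (SE 0.33). With single libraries left out, miR-23b-5p ran from -1.40 without bufotalin replicate 1 to -0.67 without bufotalin replicate 3, and miR-23a-5p from -0.86 without bufotalin replicate 3 to -0.35 without bufotalin replicate 2. miR-24-2-5p was -0.04 without control replicate 3. miR-24-1-5p had no fixed sign, at 0.03 with DESeq2's size factors, 0.04 with DESeq2, 0.14 without control replicate 3 and -0.18 without bufotalin replicate 3. In all 4 hairpins of miR-23 and miR-27 the mean log2 ratio of 3p to 5p was higher in bufotalin libraries, by 0.77 for MIR23A, 1.55 for MIR27A, 0.79 for MIR23B and 1.36 for MIR27B; of these MIR27B alone did not overlap between groups, and the ratios were chosen with the values known and were not tested. Within a cluster, miR-27-3p also stood higher beside miR-23-3p: the ratio of miR-27a-3p to miR-23a-3p was 3.83, 3.71 and 3.38 in bufotalin libraries, against 2.07, 1.02 and 1.94 in control libraries. The ratio of miR-27b-3p to miR-23b-3p was 17.0, 16.5 and 17.1 in bufotalin libraries, against 16.4, 7.69 and 8.79 in control libraries. Neither ratio overlapped between groups, though for the b cluster control replicate 1 came close to the bufotalin libraries. They too were chosen with the values known, and how often ratios of other miRNAs part the groups was not measured.

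**Figure D3:**
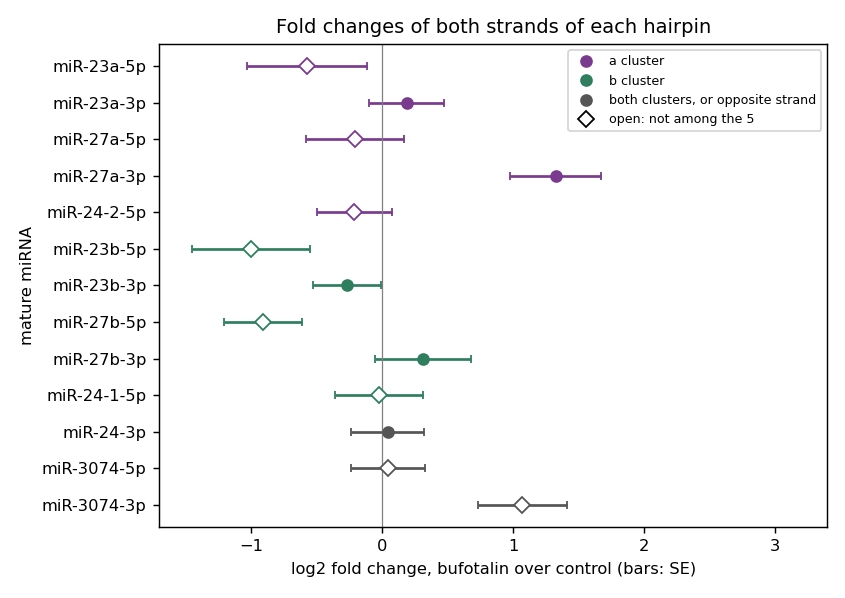
Bufotalin over control log2 fold change as fitted by edgeR, with SE bars, for both strands of each hairpin and for miR-3074, down the page by cluster; filled circles are the 5 miRNAs and open diamonds their companions. miR-27a-3p lies at 1.33 and miR-27b-5p at -0.91, while miR-24-3p and miR-3074-5p lie together at 0.04.

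miR-3074 is annotated on the opposite strand of MIR24-1, at chr9:95086014-95086094, and its counts were nearly those of miR-24-3p. The sequences are shown with the 20 bases that are complementary to each other in capitals.
miR-24-3p: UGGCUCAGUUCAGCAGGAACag
miR-3074-5p: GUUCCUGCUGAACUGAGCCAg
miR-3074-5p was counted 37084, 50245 and 51608 times in bufotalin libraries and 81592, 39317 and 36719 times in control libraries, where miR-24-3p was counted 37174, 50328 and 51641 times in bufotalin libraries and 81800, 39474 and 36787 times in control libraries. The count of miR-3074-5p was thus 99.6% to 99.9% of that of miR-24-3p in every library, and the difference was 33 to 208 counts. In this table these miRNAs cannot be told apart, and the reads appear to stand in both rows; miR-3074-5p alone made up 1.504% to 1.98% of a library. Leaving its row out, a step chosen after seeing the data, gave miR-27a-3p a log2 fold change of 1.32 (adjusted p 0.0524 by edgeR). The other strand behaved differently: miR-3074-3p, complementary to miR-24-1-5p over 19 bases, had 30.5, 32.9 and 29.1 CPM in bufotalin libraries, against 16.7, 17.5 and 14.7 CPM in control libraries. These groups did not overlap (log2 fold change 1.07, SE 0.34; adjusted p 0.0823 by edgeR, called by DESeq2 with an adjusted p of 0.0193). Its count was 57.2% to 73.3% of that of miR-24-1-5p in bufotalin and 26.8% to 38.5% in control libraries. Whether reads of miR-24-1-5p are part of the miR-3074-3p count was not tested. Of 9 companions listed, 8 were tested. Of these edgeR called 0, beside 5.66% of all 477 tested miRNAs. An unadjusted p under 0.05 was found for 2 of the 8, beside 26% of all, and DESeq2 called 1, beside 13%. Groups without overlap after TMM scaling, as miR-3074-3p had, were found for 30.6% of all.

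The miRNAs nearest to each of the 5 in their course over the 6 libraries were found among 197 others with a mean of at least 100 CPM, by the root mean square difference of centred log2 levels. Nearest to miR-27a-3p were miR-26b-5p (0.22), miR-16-2-3p (0.24) and let-7g-5p (0.27), with log2 fold changes of 0.93, 0.97 and 0.83, none called by edgeR. miR-27b-3p came at place 21 for miR-27a-3p and miR-23a-3p, from the same cluster, at place 56. Nearest to miR-27b-3p were miR-30c-5p, let-7a-5p and let-7d-5p (0.19 to 0.22). Nearest to miR-23a-3p were miR-31-5p (0.07), miR-221-3p (0.11) and miR-93-5p (0.14), and to miR-23b-3p miR-28-5p, miR-203b-5p and miR-203a-3p (0.10 to 0.11). miR-203b-5p and miR-203a-3p had nearly equal log2 fold changes by edgeR (-0.4091 for each). Whether the same reads stand in both of their rows was not tested. miR-23a-3p and miR-23b-3p held place 24 for each other. Nearest to miR-24-3p was miR-3074-5p, at 0.0015, followed by miR-28-3p (0.09) and miR-532-5p (0.16). The miRNAs of a cluster were thus not among each other's 3 nearest.

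mRNAs that have been reported elsewhere as targets of miR-23, miR-27 or miR-24 were then looked up in the total RNA libraries. Of 77 such genes, 23 stood in the authors' mRNA table and 22, all but DLL4, which was under a mean of 0.5 FPKM, were tested with limma on log2(FPKM + 1), where FPKM is fragments per kilobase and per 1000000 fragments. With Benjamini-Hochberg adjustment over 4273 genes, 15 rose, 4 fell and 3 were not called. Genes are in this table because the authors selected them as different on these samples, and 93.2% of its tested genes were called, 44.3% higher and 48.8% lower, so the share of targets called is read against that background. The median log2 fold change was 0.44 for the 22 genes and 0.13 for all tested genes. Binding of these mRNAs by the miRNAs was not measured here.

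Of 26 reported miR-27 targets, 13 were in the table, 12 were tested, 7 rose, 3 fell and 2 were not called. PPARG, the adipogenic nuclear receptor, fell to 3.91, 3.54 and 2.93 FPKM in bufotalin libraries, against 16.6, 12.2 and 15.2 FPKM in control libraries (log2 fold change -1.81, SE 0.14). HIPK2, a kinase that acts on p53, and CYP1B1, a cytochrome P450, also fell (-0.84 and -0.79), but with quantile-normalized values HIPK2 stood at -0.16 and CYP1B1 at -0.07, without a call. The other way, LPL, lipoprotein lipase, rose to 198, 211 and 205 FPKM in bufotalin libraries, against 87.3, 88.2 and 102 FPKM in control libraries (1.14, SE 0.11). RXRA, the partner receptor of PPARG, had 44.6, 42.8 and 43.5 FPKM in bufotalin libraries, against 20.0, 18.6 and 20.5 FPKM in control libraries (1.11, SE 0.10). PINK1, a mitochondrial kinase, and NFE2L2, which encodes the antioxidant regulator NRF2, rose by 0.86 and 0.67 on the log2 scale. With quantile normalization LPL stood at 0.84 and RXRA at 0.95, both still called. The smallest rises, FOXO1 and ZBTB10, both transcription factors, had 0.25 each, and each lost its call in 6 alternatives. RUNX1 and GPAM, which were not called, had 0.28 each and were called in 3 and 4 alternatives. These 4 genes are named for their calls, after their values were seen.

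Of 23 reported miR-23 targets, 6 were in the table and tested, 4 rose, 1 fell and 1 was not called. The gene not called was IL6R, a cytokine receptor, with 13.9, 3.90 and 13.2 FPKM in bufotalin libraries, against 3.85, 2.02 and 4.41 FPKM in control libraries. Its groups overlapped through bufotalin replicate 2; the log2 fold change of 1.24 (SE 0.50; adjusted p 0.0556 by limma) was the highest of the 22 targets tested, and IL6R was called in 6 alternatives, among them the fit without bufotalin replicate 2 and quantile normalization (1.68). TNFAIP3, an inhibitor of NF-κB signalling, had 27.5, 21.2 and 23.9 FPKM in bufotalin libraries, against 11.2, 12.5 and 12.9 FPKM in control libraries, without overlap (log2 fold change 0.93, SE 0.13). CHUK, a kinase subunit of that pathway, rose by 0.85 on the log2 scale. TGFBR2, a TGF-β receptor, rose by 0.36, a call lost without control replicate 2. PPARGC1A, a transcriptional coactivator of mitochondrial genes, rose by 0.37, a call lost without bufotalin replicate 3 or control replicate 1. TAB2, an adaptor upstream of NF-κB, fell to 5.99, 4.46 and 6.06 FPKM in bufotalin libraries, against 13.0, 9.22 and 10.5 FPKM in control libraries (-0.87, SE 0.15).

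Of 28 reported miR-24 targets, 4 were in the table and all 4 rose. Over all tested genes of that table, 93.2% were called and 44.3% were called higher. H2AFX, the histone variant that marks DNA breaks, had 112, 97.9 and 85.9 FPKM in bufotalin libraries, against 50.2, 48.1 and 44.0 FPKM in control libraries (1.03, SE 0.13). FEN1, a flap endonuclease of replication and repair, rose by 0.87, and the cell cycle genes CDK4 and CCNB1 by 0.46 and 0.42. With quantile normalization CDK4 stood at 0.20 and CCNB1 at 0.16, neither of them past the threshold; the call of CDK4 was also lost without control replicate 1 or bufotalin replicate 1. miR-24-3p itself had overlapping groups in the small RNA libraries.

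**Figure D4:**
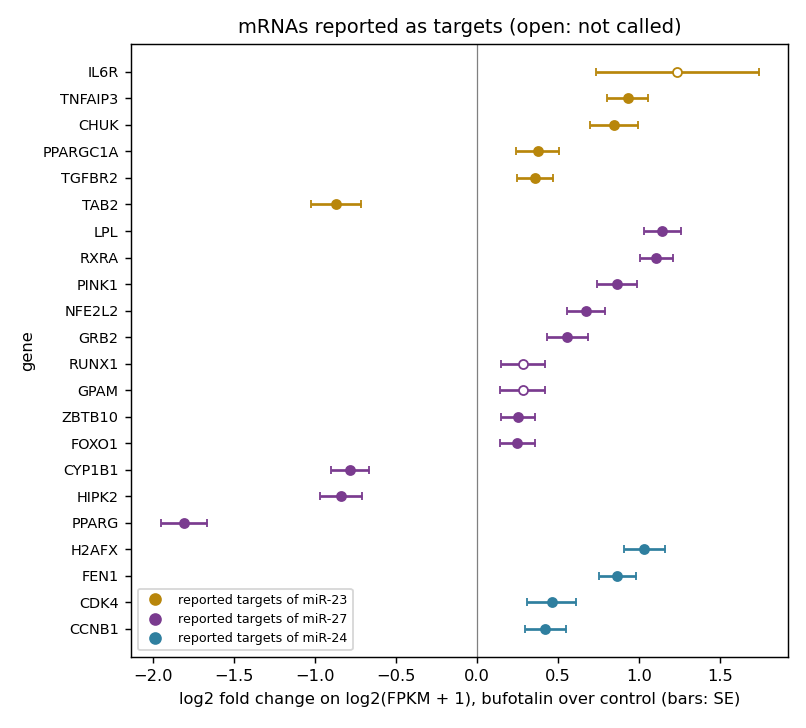
Fitted log2 fold change by limma on log2(FPKM + 1), bufotalin over control, with SE bars, for the 22 reported target mRNAs tested, grouped by miRNA; open circles were not called. The miR-27 list runs from PPARG at -1.81 to LPL at 1.14, and the 4 genes of the miR-24 list lie above 0.

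Of 13 listed genes of miRNA processing and silencing, 3 were in the table and all 3 rose, in a table where 44.3% of tested genes were called higher and 93.2% were called. AGO2, the Argonaute that can slice its targets, had 30.5, 35.5 and 48.2 FPKM in bufotalin libraries, against 21.3, 20.4 and 24.4 FPKM in control libraries (log2 fold change 0.74, SE 0.16). TARBP2, a partner of Dicer, rose by 0.56 and TNRC6A, a silencing scaffold bound by Argonaute, by 0.39. The call of TNRC6A was lost without control replicate 2 or 3, without bufotalin replicate 3, with no FPKM minimum and with a replicate block.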

How the data were processed

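For each mature miRNA the authors deposited its read count and its TPM, and the TPM equalled the count over the library total with no length correction (largest difference 4.37e-10); CPM here is the same quantity. The authors deposited FPKM for mRNA genes and lncRNA transcripts that they selected as different; the lncRNA values were used to look for host genes. The submitters' processing notes name CASAVA 1.8, fastp, HISAT2 2.0.5, featureCounts 1.5.0-p3, DESeq2 1.20.0 and GRCh38, without saying which tool made which table. The depth of the total RNA libraries is unknown.

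Counts were compared with edgeR 4.0.16 (TMM scaling, the filterByExpr filter, a robust quasi-likelihood F test) over all miRNAs, and FPKM with limma 3.58.1 (trended, robust) on log2(FPKM + 1), leaving out genes whose mean was under 0.5 FPKM. These fold changes understate low genes. SE in edgeR is the log2 fold change over the square root of F. Ratios of counts took a pseudocount of 0.5 and an exact two-sided permutation test. All tests used a threshold of 0.05. Named were the 5 members, 9 companions, miRNAs with a shared seed, the 3 nearest miRNAs, up to 4 target mRNAs each way per list by smallest p, and processing genes in the table. The fits were also run on simulated data, drawn without an outlying library, so those runs do not show how the fits suit these libraries. Other software was DESeq2 1.42.0, R 4.3.3, Python 3.11.15 with scipy 1.17.1, pandas 2.3.3, numpy 2.4.6, and matplotlib 3.10.9 for the plots. Sequences are RefSeq, matched by name. A listed target was taken out and is not reported here. The members and lists were chosen with earlier results of these data known.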

Additional observations from a re-analysis of the deposited data

How the results depend on the processing

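The count of members called by edgeR was 1, miR-27a-3p, in place of 0 with DESeq2's size factors (log2 fold change 1.38), with no filter on low counts (1.27) and without control replicate 1, the DESeq2 test also called 1 (1.38), and the edgeR count was 0 to 1 when single libraries were dropped. Its log2 fold change was 1.05 to 1.75 over the libraries left out and 1.2 with library totals. DESeq2 called 1 companion, miR-3074-3p, and with each library left out edgeR called 0. Calls over all miRNAs were 62 with DESeq2, 3 in the fit with a replicate block, and 6 to 40 over the libraries left out (13, 8 and 6 without bufotalin replicate 1, 2 and 3). With library totals the share of calls on the higher side was 23.8%, where TMM gave 37.0%, and the median over all miRNAs was -0.20 on the log2 scale, where TMM gave -0.04; miR-23a-3p then had -0.0054 and miR-24-3p -0.10. Without 1 library, miR-23a-3p ranged from -0.057 to 0.35, miR-24-3p from -0.16 to 0.17 and the miR-23-5p ratio from -0.17 to 0.91; the cause was not tested.

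Whether replicate numbers pair the libraries was not settled. The deviations of same-numbered small RNA libraries correlated at 0.14, 0.03 and 0.37. Bufotalin replicates 1 and 3 correlated best with the control library of the same number, and bufotalin replicate 2 with control replicate 1 (0.22). For same-numbered total RNA libraries the correlations were -0.02, 0.03 and -0.05. With the replicate block miR-27a-3p had 1.39 and was not called, and in the blocked sign-flip test of the ratios, which cannot go below 0.25 with 3 pairs, the miR-27-3p difference was 0.96 (exact p 0.25). Among mRNAs the blocked fit ended the calls of TNRC6A, FOXO1 and ZBTB10 and called IL6R.

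Reported targets that fell numbered 4, and 2 under quantile normalization, where higher calls over all mRNAs were 50.9% of calls, against 47.6%. Calls over the libraries left out were 15 to 19, of which 11 to 15 higher and 4 lower. The log2 differences of the miR-27-3p and miR-23-3p ratios and of the cluster sums were above 0 in every alternative run. That of the miR-24-5p ratio was below 0 in each, at -0.23 to -0.08. In all of these the groups did not overlap, so leaving out a library could not change the sign. Depth limits miR-23a-5p and miR-23b-5p, with 14 to 128 counts a library, and miR-24-1-5p, with 85 to 182.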
